A study of Mus musculus with 27 samples.

Results

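Albumin and 8 other major carrier proteins of blood plasma were followed at the level of liver RNA through a reproductive cycle of the mouse. The 9 genes were taken as a fixed list by symbol: Alb (albumin), Gc (vitamin D binding protein), Afm (afamin), Ahsg (fetuin-A), Fetub (fetuin-B), Hrg (histidine-rich glycoprotein), Ambp (alpha-1-microglobulin and bikunin), Hpx (hemopexin) and Rbp4 (retinol binding protein 4). All 9 were found among the 51826 gene identifiers of the deposited tables, and all 9 passed the filter on low counts that left 16428 genes for testing. Whole livers of wild-type BALB/c mice, an inbred strain, had been sequenced as bulk RNA in 27 libraries, with no transgene, deletion or drug in any group. The groups were nulliparous mice that had never been pregnant (NUL, 4 libraries), mice at lactation day 10 (LAC, 3), mice 2, 4, 6 and 8 days after the pups were removed (ID2, 3; ID4, 4; ID6, 6; ID8, 3) and mice 4 weeks after weaning (REG, 4). All mice were age matched, those bred had been mated at 10 to 12 weeks of age, litter size was evened out, and weaning took place between lactation days 10 and 14, which leaves room for unequal lengths of lactation among the groups after weaning. The labels give no age at collection and do not say whether any library pooled animals. Where a library is 1 animal, p-values measure the spread between animals, and otherwise only the spread between libraries.

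Hepatocytes make these proteins with a signal peptide and secrete them into blood. Albumin, the most abundant plasma protein, keeps water in the vessels and carries fatty acids, bilirubin, calcium and hormones. Its relatives in the albumin family carry vitamin D metabolites and actin (Gc) and vitamin E (Afm). Ahsg, Fetub and Hrg are cystatin-type glycoproteins: fetuin-A keeps calcium phosphate in solution, fetuin-B protects the egg coat from early hardening, and histidine-rich glycoprotein binds heparin, zinc and plasminogen. Hemopexin binds free haem and is known as an acute phase protein of rodents, alpha-1-microglobulin also binds haem and radicals, and retinol binding protein 4 carries vitamin A out of the liver.

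The members fell into 2 clusters and 3 single genes on the genome. In the GRCm38 assembly Alb lies on chromosome 5 at 90460897 to 90476602 on the plus strand, Afm at 90518932 to 90553543 on the plus strand and Gc at 89417522 to 89457898 on the minus strand. Afp, which encodes the fetal albumin relative alpha-fetoprotein and is not a member, starts 14.1 kb after the end of Alb and ends 10.0 kb before Afm, whereas Gc ends 1003 kb before Alb. Ahsg (22891277 to 22899449), Fetub (22918334 to 22939778) and Hrg (22951072 to 22961656) follow one another on the plus strand of chromosome 16 with gaps of 18.9 and 11.3 kb. Ambp lies on chromosome 4 (63143275 to 63154799), Hpx on chromosome 7 (105591613 to 105600137) and Rbp4 on chromosome 19 (38116629 to 38125281), all 3 on the minus strand. All are annotated as protein-coding. Every count of every member was whole to within 0.001 in all 27 libraries, as were those of most genes, with fractional counts for 6.1 to 7.04% of identifiers per library.

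Promoters of 4 members are printed, those of Alb and Afm, called higher in lactation, and of Hrg and Hpx, called higher at day 4 after weaning, because each carries a match to a short form of the motif of HNF4, a nuclear receptor of hepatocytes. The sequences are from RefSeq on GRCm38.p6, written 5′ to 3′ on the strand of the gene, and end before the annotated start of the gene. Capitals mark GGNCAAAG on either strand and, in Alb, also TTANGTAA, a form of the D box that the clock-driven factor DBP binds. The stretches are chr5:90460620-90460869 for Alb, chr5:90518699-90518931 for Afm and chr16:22950822-22951071 for Hrg, on the plus strand, and chr7:105600138-105600366 for Hpx, on the minus strand.
Alb: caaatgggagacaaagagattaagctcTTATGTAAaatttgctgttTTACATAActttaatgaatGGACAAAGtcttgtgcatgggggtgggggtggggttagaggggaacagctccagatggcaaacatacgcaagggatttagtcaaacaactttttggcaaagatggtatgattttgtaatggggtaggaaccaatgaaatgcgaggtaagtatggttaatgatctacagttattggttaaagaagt
Afm: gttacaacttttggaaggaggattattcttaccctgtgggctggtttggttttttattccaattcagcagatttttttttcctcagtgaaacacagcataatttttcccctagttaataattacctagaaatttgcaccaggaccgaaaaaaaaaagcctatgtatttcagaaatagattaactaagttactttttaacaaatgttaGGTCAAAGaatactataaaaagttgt
Hrg: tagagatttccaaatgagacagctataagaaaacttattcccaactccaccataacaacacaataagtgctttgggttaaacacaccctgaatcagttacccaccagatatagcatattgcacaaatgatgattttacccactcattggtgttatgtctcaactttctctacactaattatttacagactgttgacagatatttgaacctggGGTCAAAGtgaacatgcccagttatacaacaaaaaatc
Hpx: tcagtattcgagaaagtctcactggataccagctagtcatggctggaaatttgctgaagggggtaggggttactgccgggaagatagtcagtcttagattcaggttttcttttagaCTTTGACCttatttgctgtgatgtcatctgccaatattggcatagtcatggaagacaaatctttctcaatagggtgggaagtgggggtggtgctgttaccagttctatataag
The HNF4 match began 185 bases before the RefSeq start in Alb, 43 in Afm, 38 in Hrg and 134 in Hpx. Of 32851 promoter windows of 250 bases in the RefSeq table, 4.89% held this motif on either strand, and 5 of the 9 members did, the other being Ahsg, whose RefSeq window lies inside the gene as GENCODE annotates it. TTANGTAA was present in 2.06% of windows and among the members in Alb, where it occurred at 223 and again at 204 bases before the start. The forkhead motif TGTTTNC was found in 17.8% of windows and 5 members, the C/EBP motif TTGNNNAAT in 10.4% and 1 member (Hrg), and the STAT motif TTCNNNGAA in 7.02% and no member. These are matches of letters in a window, and binding was not measured. The shares count single windows, whereas a member was counted where any of its windows matched, and the 9 members have 11 windows. Of the 2 windows of Rbp4, 1 held the forkhead motif.

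Library totals ranged from 41120650 to 75664540 estimated counts. Of the 12 hepatocyte markers listed for the tissue check (Ttr and Apob among them), all 12 were detected in every group, and their sum stayed between 27154 and 37616 CPM (counts scaled to a common total by the TMM method) across the libraries. The title numbers of 7 libraries lay under 200 (all 3 of ID8, 2 of 3 of ID2 and 2 of 4 of ID4), which the labels do not explain, and in ID8 this numbering cannot be told apart from the stage. Library ID2_31 stood apart in 14 markers of pancreas, which summed to 1881 CPM there, to 137 in ID4_15, to 50.5 in ID8_98b and to no more than 25.8 in the other 24. Because the samples are whole liver, fewer cells of a type and less RNA per cell cannot be told apart in any result below.

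Alb was the gene with the highest mean TPM (a length-scaled share of transcripts) of all 51826 in NUL, at 61356 ± 6921 (SD, n = 4). Next among the members came Ahsg at 8706 TPM, Gc at 4295, Rbp4 at 3995, Hpx at 3780 and Ambp at 3023. Hrg (428), Afm (313) and Fetub (291) were an order lower. In this ranking Gc and Rbp4, Rbp4 and Hpx, and Afm and Fetub overlapped between libraries, and the other neighbours did not. In ID4 the order changed, with Hpx at 8262 TPM behind only Alb and Ahsg, though its libraries overlapped those of Gc. Hpx held the same place by mean in ID6, at 5634 TPM, where it overlapped both Ahsg and Gc. In ID4 Alb stood at rank 3 among all genes, at 50676 ± 3005 TPM (n = 4), against rank 1 in each of the other groups.

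Across the cycle, 7 of the 9 members differed among the 7 stages (edgeR quasi-likelihood test over all stages, Benjamini-Hochberg adjusted p under 0.05), where 27% of all genes tested did. The edgeR adjusted p was 4.06e-06 for Alb, 1.23e-05 for Hrg, 7.17e-05 for Ahsg, 1.19e-04 for Hpx, 0.00114 for Ambp, 0.00150 for Fetub and 0.0154 for Gc. Afm (0.183) and Rbp4 (0.285) did not pass. The mean level was highest in LAC for Alb and Afm and in ID4 for the other 7 members. Of all genes tested, 23.6% had their highest mean in LAC and 14% in ID4.

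**Figure D1:**
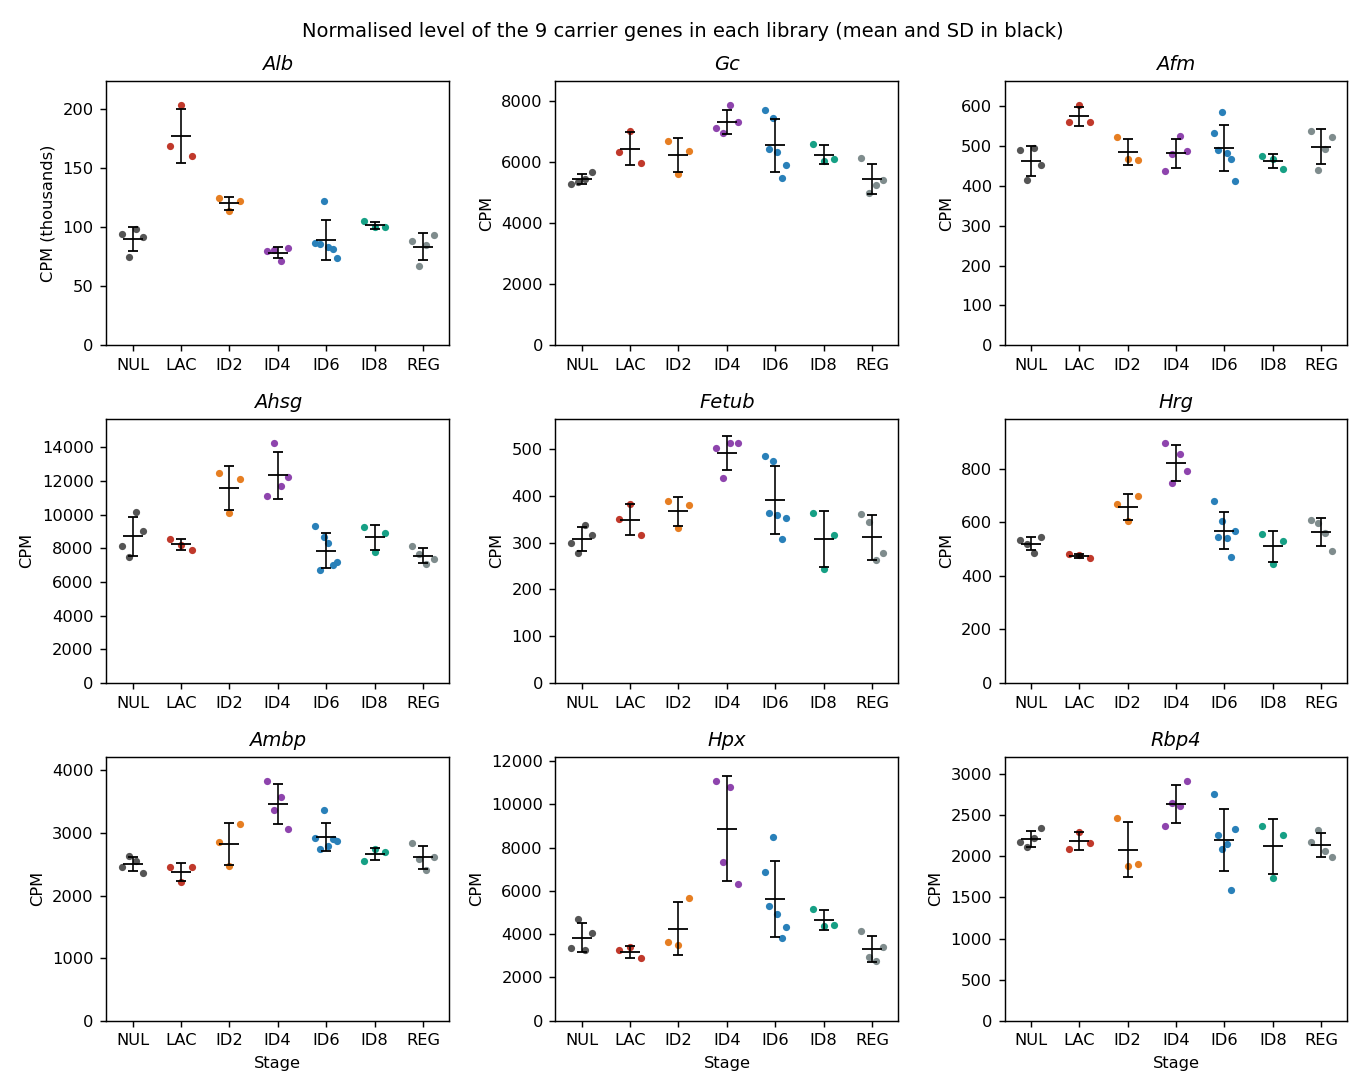
Normalised level (CPM, linear axis from 0, in units of 1000 CPM for Alb alone) of each of the 9 carrier genes in all 27 libraries by stage. The group mean and SD are in black. Alb peaks in LAC (159779 to 203181 CPM, above every other library), whereas Hpx peaks in ID4 with a wide spread (6308 to 11093 CPM).

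Albumin RNA rose in lactation, to 1.97-fold its nulliparous level, and had fallen by day 2 after weaning. In NUL the 4 libraries had 94532, 74644, 98151 and 91769 CPM of Alb, and the 3 LAC libraries had 168309, 203181 and 159779. The LAC libraries were thus the 3 highest of all 27 and lay far from the NUL range. The log2 fold change was 0.98 (SE 0.14) with an edgeR adjusted p of 5.48e-05. Every alternative scaling and every fit without 1 library kept this call, with values from 0.80 to 1.05. The lowest value came from scaling to total counts, under which the median of all genes was itself shifted by -0.19 (log2) between LAC and NUL. Relative to that shift Alb was higher by 0.99.

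After weaning Alb fell in steps. The ID2 libraries had 124189, 113924 and 122304 CPM, below all LAC and above all NUL libraries. The fall from LAC was called (log2 fold change -0.56, SE 0.16, edgeR adjusted p = 0.0144), while the remaining excess over NUL was not (0.42, SE 0.14, edgeR adjusted p = 0.112). The call of the fall was lost without LAC_213 (edgeR adjusted p = 0.103) or without ID2_31 (0.0576), the library with pancreas markers. It was also lost with the title number range as a covariate (0.0606). The ID4 libraries had 79419, 80593, 71124 and 82018 CPM, lower than every ID2 library, and the fall from ID2 to ID4 was called (-0.62, SE 0.14, edgeR adjusted p = 0.0227). That call was lost in 4 of 7 fits without 1 library, with an adjusted p of up to 0.0953 (without ID2_39) and of 0.0595 without ID2_31. Against NUL, ID4 did not pass the test (-0.20, SE 0.13, edgeR adjusted p = 0.465).

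At later times the Alb values lay around those of NUL. ID6 ran from 73677 to 122396 CPM with a median of 84650, the top value being that of ID6_216 alone. ID8 had 105116, 99771 and 99695 CPM, all slightly above the highest NUL library, and REG had 88106, 67194, 84946 and 93619. The log2 fold changes against NUL were -0.02 in ID6 (-0.13 without ID6_216), 0.18 in ID8 and -0.11 in REG, none of them called by edgeR.

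As a share of all counts in a library, Alb took 9.85, 7.99, 10.2 and 9.27% in NUL and 15.6, 18 and 15.1% in LAC. The mean was 9.33% in NUL and 16.2% in LAC, 6.88 percentage points or 1.74-fold higher, with no overlap. An exact permutation test (two-sided) gave p = 0.0571, which is the smallest that 3 against 4 libraries can give, and 0.147 after adjustment over 18 share tests. The other 8 members together took 2.37 to 2.6% in NUL and 2.15 to 2.23% in LAC, a lower share in every LAC library (exact permutation p = 0.0571, again the smallest possible). On the TMM-scaled level the sum of the 8 genes overlapped, at 22759 to 24991 CPM in NUL and 22748 to 24645 in LAC. In ID4 the same 8 genes took 3.52 ± 0.20% (SD, n = 4), 1.41-fold the NUL mean, with no overlap (exact permutation p = 0.0286, the smallest possible for 4 against 4, adjusted 0.147). All 9 carriers summed to 11.8 ± 0.98% of counts in NUL (n = 4), 18.4 ± 1.6% in LAC (n = 3), 14.2 ± 0.25% in ID2 (n = 3), 11.1 ± 0.46% in ID4 (n = 4), 12.0 ± 1.5% in ID6 (n = 6), 12.5 ± 0.044% in ID8 (n = 3) and 11 ± 0.94% in REG (n = 4).

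The ratio of Alb counts to the summed counts of the other 8 members does not depend on the scaling of libraries. It was 3.18 to 4.15 in NUL, 6.98 to 8.24 in LAC and 1.85 to 2.44 in ID4, so these 3 groups did not overlap one another. On the log2 scale the mean of LAC was 0.99 above that of NUL (exact permutation p = 0.0571, the smallest possible, adjusted 0.171 over 6 tests). The difference of ID4 from NUL was -0.79 (exact permutation p = 0.0286, the smallest possible, adjusted 0.171). In REG the mean log2 ratio was 1.89 ± 0.21 (n = 4) against 1.90 ± 0.17 in NUL (n = 4).

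**Figure D2:**
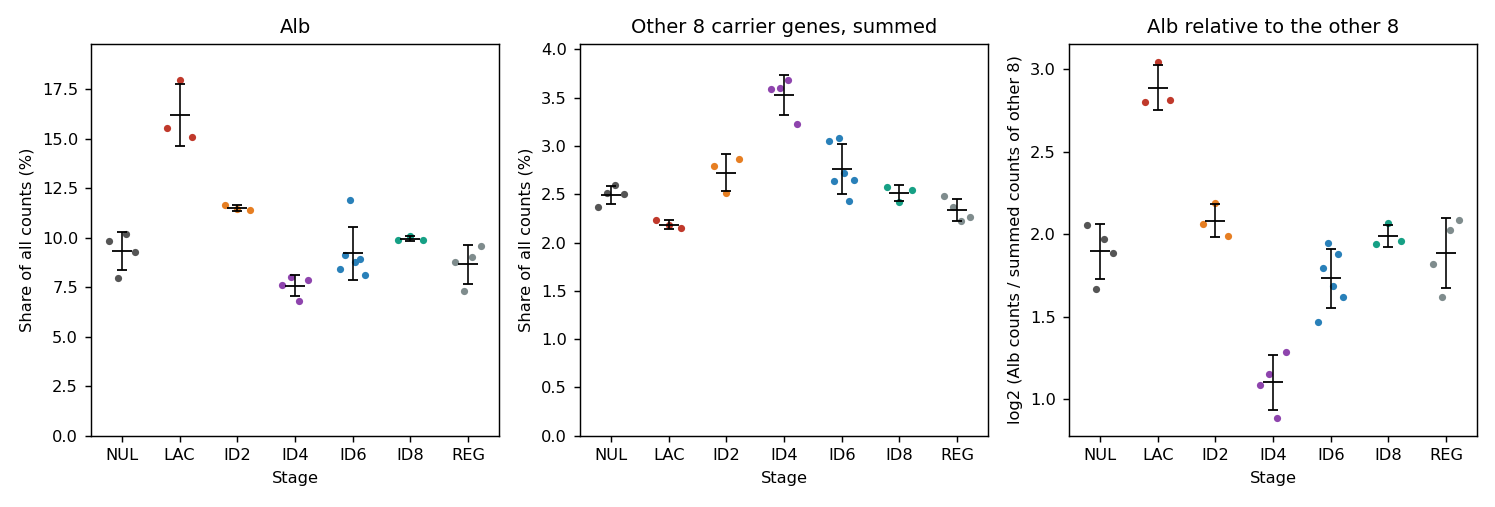
Share of all counts (%) taken by Alb and by the other 8 carriers summed, and the log2 ratio of the former to the latter, for each of the 27 libraries by stage with mean and SD in black. The Alb share is highest in LAC (mean 16.2%), the share of the other 8 is highest in ID4 (mean 3.52%), and the ratio is highest in LAC and lowest in ID4.

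Among the relatives of albumin, Afm had 490, 415, 495 and 452 CPM in NUL and 560, 603 and 561 in LAC, without overlap. The log2 fold change of 0.31 (SE 0.10) was called with an edgeR adjusted p of 0.0420. The call was lost in 5 of 7 fits without 1 library (adjusted p up to 0.168, without LAC_213) and in 6 of 11 other settings. In no other comparison was Afm called, and its group means otherwise stayed between 462 and 498 CPM.

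Gc had 5287, 5345, 5457 and 5677 CPM in NUL and 7118, 6968, 7872 and 7304 in ID4. All ID4 libraries were above all NUL libraries, and the log2 fold change was 0.43 (SE 0.10, edgeR adjusted p = 0.0136, or 0.0511 without ID4_211). In LAC, Gc values of 6327, 7036 and 5982 CPM also lay above NUL but did not pass (0.24, SE 0.11, edgeR adjusted p = 0.164). Its highest mean was in ID4, that of Alb in LAC.

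Afp was low throughout, with 1.70 ± 0.24 CPM in NUL (SD, n = 4), 5.68 ± 0.54 in LAC (n = 3) and 3.32 ± 0.33 in ID2 (n = 3). It rose in LAC against NUL by 1.74 on the log2 scale (SE 0.26, edgeR adjusted p = 7.51e-05) and was still higher in ID2 than in NUL (0.96, edgeR adjusted p = 0.0411). In ID4 its mean was 1.92 CPM. In LAC, 3 of the 4 genes of the albumin family (Alb, Afm and Afp) were called higher and none lower, where 5.19% of all genes were called higher.

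The largest group of calls among the carriers came at day 4 after weaning. In ID4 against NUL 6 of 9 members were called higher (Hpx, Fetub, Hrg, Ahsg, Ambp and Gc) and none lower, where 4.25% of all genes tested were called (2.64% higher and 1.61% lower). For 7 of 9 members, Rbp4 being the seventh, every ID4 library lay above every NUL library, against 6.17% of all genes. The median log2 fold change of the members was 0.47, beside -0.02 over all genes. With the title number range or the number of sequencing runs as a covariate the same 6 were called.

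The 3 cystatin-type genes of the chromosome 16 cluster were all called higher in ID4 than in NUL. Ahsg had 8129, 7464, 10174 and 9050 CPM in NUL, 8584, 8220 and 7925 in LAC, 12482, 10088 and 12136 in ID2 and 11099, 14268, 11718 and 12221 in ID4. Its ID2 libraries all exceeded the LAC libraries, and its ID4 libraries all exceeded NUL. Ahsg rose from LAC to ID2 by 0.49 (log2, SE 0.13, edgeR adjusted p = 0.0134) and was 0.50 above NUL in ID4 (SE 0.12, adjusted p = 0.0109). The former call was lost in 2 of 6 fits without 1 library (adjusted p up to 0.0630, without ID2_224), the latter in 2 of 8 (up to 0.0541, without NUL_221, and 0.0507 without ID4_15). By ID6 its range was 6710 to 9348 CPM with a median of 7746, below every ID4 library (-0.65, SE 0.10, edgeR adjusted p = 4.41e-04).

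Hrg also rose between LAC and ID2. It had 533, 519, 486 and 543 CPM in NUL, 481, 476 and 466 in LAC, 666, 604 and 699 in ID2 and 896, 745, 856 and 792 in ID4. No library of ID2 or ID4 overlapped NUL or LAC. The log2 change was 0.47 from LAC to ID2 (SE 0.11, edgeR adjusted p = 0.00566), 0.66 from NUL to ID4 (SE 0.10, 1.76e-04) and -0.53 from ID4 to ID6 (SE 0.09, 5.32e-04). These 3 calls were kept in every fit without 1 library and under each of the 11 other settings tried. The LAC values were just below the lowest NUL library (-0.13, edgeR adjusted p = 0.489).

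Fetub had 300, 277, 338 and 316 CPM in NUL, 388, 332 and 380 in ID2 and 502, 438, 513 and 514 in ID4. The ID4 libraries were above all NUL libraries (log2 fold change 0.68, SE 0.13, edgeR adjusted p = 0.00247), and this call was kept in every fit without 1 library. In ID2 the values overlapped NUL (0.25, edgeR adjusted p = 0.376). Its level in ID6 ran from 309 to 486 CPM, and the difference from ID4 was not called (-0.33, SE 0.12, edgeR adjusted p = 0.0834) unless ID6_216 (0.0402) or ID6_201 (0.0302) was left out.

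Of the haem-binding carriers, Hpx had the larger fold change in ID4 and the wider spread between libraries. It had 3382, 4692, 3268 and 4039 CPM in NUL, 3280, 3408 and 2882 in LAC, 3645, 3484 and 5648 in ID2 and 11093, 7322, 10777 and 6308 in ID4. All ID4 libraries were above every NUL, LAC and ID2 library, but they fell into a higher and a lower pair. The log2 fold change was 1.21 against NUL (SE 0.22, a fold of 2.31, edgeR adjusted p = 0.00175) and 1.06 against ID2 (SE 0.24, adjusted p = 0.0223). The call against ID2 was lost in 4 of 7 fits without 1 library (adjusted p up to 0.148, without ID2_31) and in 3 of 11 other settings, among them the sequencing run covariate (0.0848). From ID4 to ID6, where Hpx ran from 3844 to 8476 CPM with a median of 5100, it fell by 0.66 (SE 0.20, edgeR adjusted p = 0.0361). That call was lost in 6 of 10 fits without 1 library (adjusted p up to 0.149, without ID4_13) and in 7 of 11 other settings, among them both covariates and both TPM scales. In ID8 it had 5168, 4357 and 4423 CPM and in REG 4135, 2933, 2753 and 3422, neither called against NUL.

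Ambp had 2462, 2626, 2555 and 2366 CPM in NUL, 2454, 2217 and 2456 in LAC and 3835, 3364, 3576 and 3066 in ID4. ID4 stood above NUL without overlap (log2 fold change 0.47, SE 0.09, edgeR adjusted p = 0.00243), a call kept in every fit without 1 library. In ID6 all 6 libraries, at 2737 to 3369 CPM, were still above the highest NUL library, but the difference of 0.23 was not called (SE 0.08, edgeR adjusted p = 0.221).

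Rbp4 had 2175, 2117, 2218 and 2347 CPM in NUL, 2087, 2302 and 2160 in LAC and 2363, 2648, 2617 and 2922 in ID4. It was not called in any of the 11 comparisons, although it was called lower from ID4 to ID6 when ID6_201 was left out (-0.34, edgeR adjusted p = 0.0472). The ID4 libraries were all above NUL, by little in the lowest case (log2 fold change 0.25, SE 0.12, edgeR adjusted p = 0.271).

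**Figure D3:**
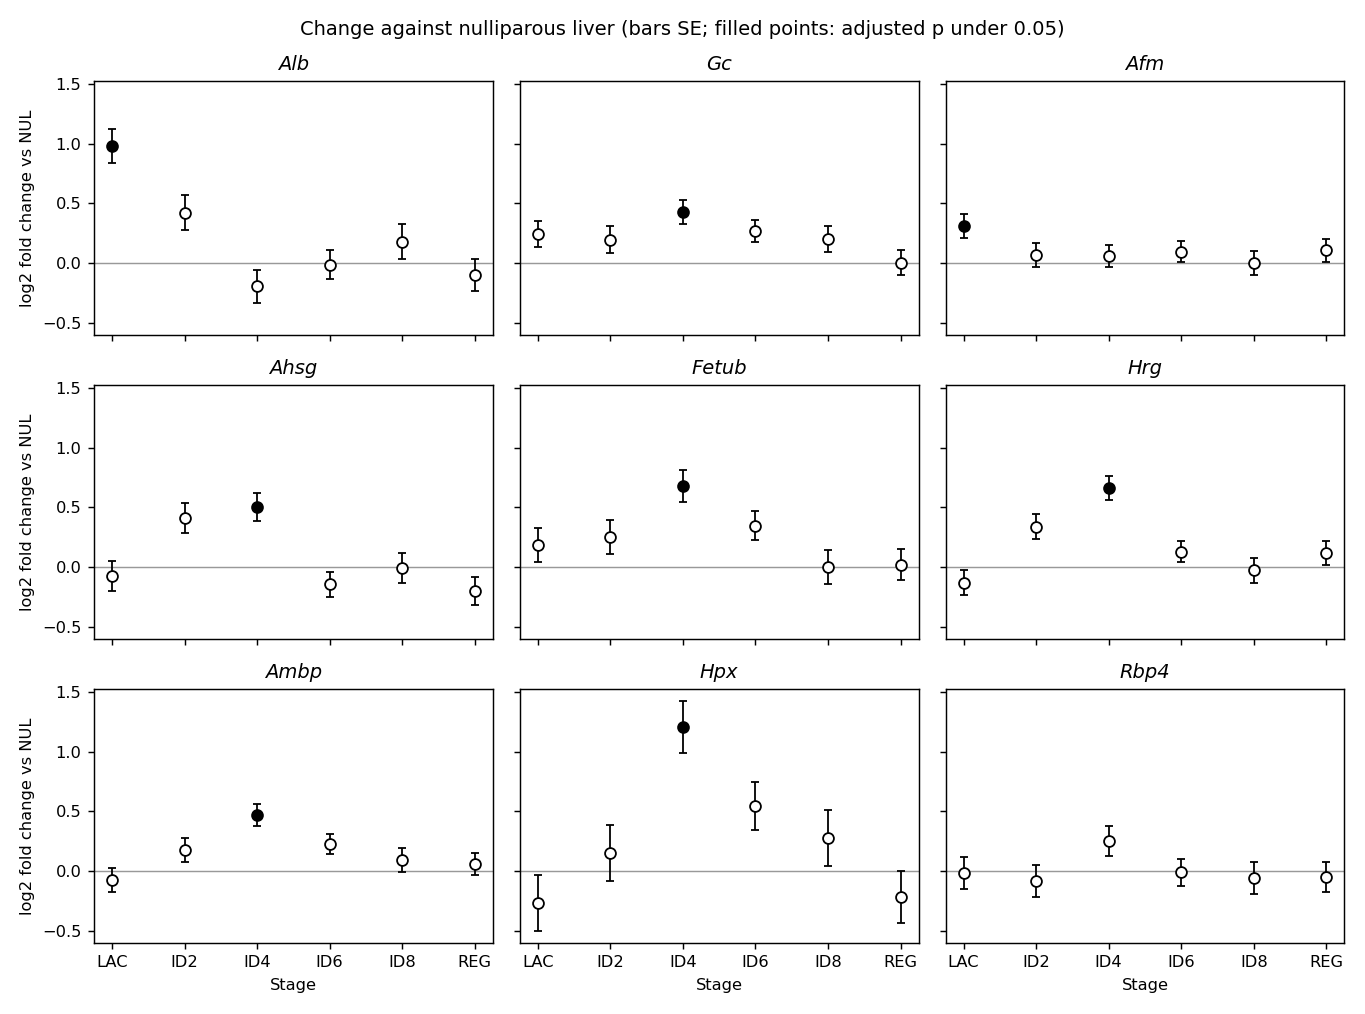
Log2 fold change against NUL (y axis) of each of the 9 carriers at the 6 later stages, with bars for the SE and filled points where the edgeR adjusted p was under 0.05. Alb and Afm are filled in LAC (0.98 and 0.31), 6 other members in ID4 (0.43 to 1.21), and no point is filled in ID2, ID6, ID8 or REG.

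Read by comparison, 2 of 9 members were called in LAC against NUL, both higher, where 11.2% of all genes were called (5.19% higher and 6% lower). Without overlap between the groups, 3 members were higher (Alb, Gc and Afm) and 1 lower (Hrg), beside 10.2% and 11.2% of all genes. The median over the members was -0.02, beside -0.01 over all genes. In the change from LAC to ID2 3 of 9 were called (Ahsg and Hrg higher, Alb lower), where 16.1% of all genes were. From ID2 to ID4 2 of 9 were called (Hpx higher, Alb lower) against 1.49%, and none without ID2_224, ID2_31 or ID4_211 and 1 without ID2_39 or ID4_13. From ID4 to ID6 3 of 9 (Ahsg, Hrg and Hpx) were called, all lower, against 8.5% of all genes (3.87% higher and 4.64% lower), and 2 to 5 in fits without 1 library. Hpx was lost in 6 of these 10 fits, while 5 were called without ID6_216, which added Fetub and Ambp, and without ID6_201, which added Fetub and Rbp4.

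With TMM scaling, no member was called by edgeR in ID2, ID6, ID8 or REG against NUL, nor from ID6 to ID8 or from ID8 to REG. All genes were called at rates of 3.24, 1.08, 0.499 and 0.0852% in the comparisons with NUL and of 4.12 and 0.0487% in the last 2. At an unadjusted p under 0.05 edgeR gave 3 of 9 members in ID2, 4 in ID6 and none in ID8 or REG against NUL, beside 16.9, 11.9, 12.8 and 7.17% of all genes. Without NUL_226, Ahsg was called higher in ID2 against NUL (0.49, edgeR adjusted p = 0.0439). With all libraries kept and an unadjusted p under 0.05, edgeR gave 1 member from ID6 to ID8 and 1 from ID8 to REG. The shares of all genes were 20.5 and 9.02%. DESeq2 called 3 members in ID2 against NUL, namely Alb (adjusted p = 0.0373), Ahsg (0.0202) and Hrg (0.0309), all higher, where it called 5.25% of all genes, and no member in the other 5 comparisons. Limma on log2(TPM + 1) called Gc higher in ID6 against NUL (adjusted p = 0.0110, with 1.22% of all genes called) and Fetub lower from ID6 to ID8 (0.0223, with 5.22%), and no member in the other 4. In REG the log2 fold changes against NUL ran from -0.22 (Hpx, SE 0.22) to 0.12 (Hrg, SE 0.10). Since each stage was compared with the same 4 NUL libraries, these comparisons are not independent of one another.

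The members varied together to differing degrees across the 27 libraries, which share the stages and are therefore described without a test. Pearson's r of log2 CPM had a median of 0.58 over the 28 pairs that leave out Alb (range -0.12 to 0.88) and of -0.13 over the 8 pairs with Alb (-0.42 to 0.66). The highest values were those of Ambp with Hpx (0.88), Gc with Fetub (0.85) and Fetub with Hrg (0.80), and the lowest that of Alb with Ambp (-0.42). Among 7739 tested genes with a mean of at least 10 CPM, the 5 non-members most like Alb were Gm2a (0.89), Gstm5 (0.87), Gstm4 (0.87), Rnd2 (0.87) and Pltp (0.86). Closest to Gc was Cfi (0.94), to Ambp Itih4 (0.93), to Hpx Tmem176a (0.94), to Hrg and to Fetub Psap (0.92 and 0.90), to Ahsg Adora1 (0.87), to Rbp4 Ctsf (0.83) and to Afm Clpb (0.77).

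Beside these values stood the level of 16 inducible acute phase genes (Saa1, Orm1, Lcn2 and Hp among them), whose products the liver secretes in inflammation. In ID4 against NUL 10 of 16 were called higher and 1 lower, with a median log2 fold change of 1.11, where 4.25% of all genes were called. In LAC none was called higher and 4 lower (median -0.73), where 11.2% of all genes were called, and in REG none was called. Hamp, the gene of the iron hormone hepcidin, fell from 1108 ± 96.8 CPM in NUL to 348 ± 158 in LAC (log2 fold change -1.67, edgeR adjusted p = 2.12e-05). Lcn2, which encodes a carrier of bacterial iron chelators, fell from 14.2 ± 16.2 to 1.95 ± 0.088 CPM (-2.86, edgeR adjusted p = 0.0393) and Saa3 from 6.49 ± 0.45 to 2.12 ± 0.82 (-1.61, edgeR adjusted p = 0.0143). From LAC to ID2 8 of 16 were called higher and none lower, where 8.48% of all genes were called higher. Lcn2 rose to 36.1 ± 38 CPM (4.20, edgeR adjusted p = 0.00495), Saa2 from 3.18 ± 0.78 to 34.1 ± 28.7 (3.42, edgeR adjusted p = 0.0300) and Saa1 from 4.88 ± 0.5 to 41.3 ± 35.8 (3.08, edgeR adjusted p = 0.0375). The counts of Saa1 and Saa2, near-identical copies, are uncertain. The 16 genes summed to 8590 to 13794 CPM in NUL, 7252 to 8812 in LAC, 8556 to 14998 in ID2, 13272 to 20103 in ID4, 8472 to 14894 in ID6, 8587 to 11569 in ID8 and 8239 to 9629 in REG. Within ID4 the order of the 4 libraries by this sum was that of their Hpx level, and within ID6 the library with the highest sum, ID6_216, also had the highest Hpx. Macrophage markers moved too: 6 of 8 were called higher in ID4 against NUL (2.64% of all genes) and 5 of 8 lower in LAC (6%). In ID6 against NUL 5 of 8 were called higher as well, where edgeR with TMM scaling called 1.08% of all genes and no carrier. Limma, and edgeR scaled to total counts, called Gc there as given above. The macrophage markers summed to 361 to 465 CPM in NUL, 245 to 348 in LAC, 616 to 679 in ID4 and 498 to 788 in ID6. None of them was at 0 in all libraries of a group. In LAC against NUL, markers of other cells were called lower as well and none higher. These were 3 of 8 of stellate cells (median log2 fold change -0.57), 2 of 5 tested of bile duct cells (-0.29), 2 of 8 of T and NK cells (-1.18), 2 of 6 of B cells (-1.04) and 1 of 5 tested of neutrophils (-0.96). Stellate cell markers summed to 227.3 to 314 CPM in NUL and 178 to 197 in LAC, and those of bile duct cells to 33.9 to 47.1 and 21.4 to 27.9. The markers of T and NK cells summed to 2.2 to 3.2 CPM in NUL and 0.589 to 1.68 in LAC, of neutrophils to 2.89 to 5.84 and 1.96 to 3.07, and of B cells to 7.98 to 14.1 and 8.94 to 13. The groups overlapped in the sums of neutrophil and B cell markers. Of the 12 hepatocyte markers, Cyp3a11 was called higher (0.71) and Cyp2e1 (-1.49) and Pck1 (-1.36), a gene of glucose synthesis, lower in LAC against NUL, with a median of 0.08. Erythroid markers summed to 335 to 713 CPM in NUL, 768 to 1016 in LAC, 410 to 1192 in ID2, 407 to 1027 in ID4, 53.1 to 264 in ID6, 19.9 to 35 in ID8 and 451 to 639 in REG. The part of these cells and genes in the carriers' changes was not tested.

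**Figure D4:**
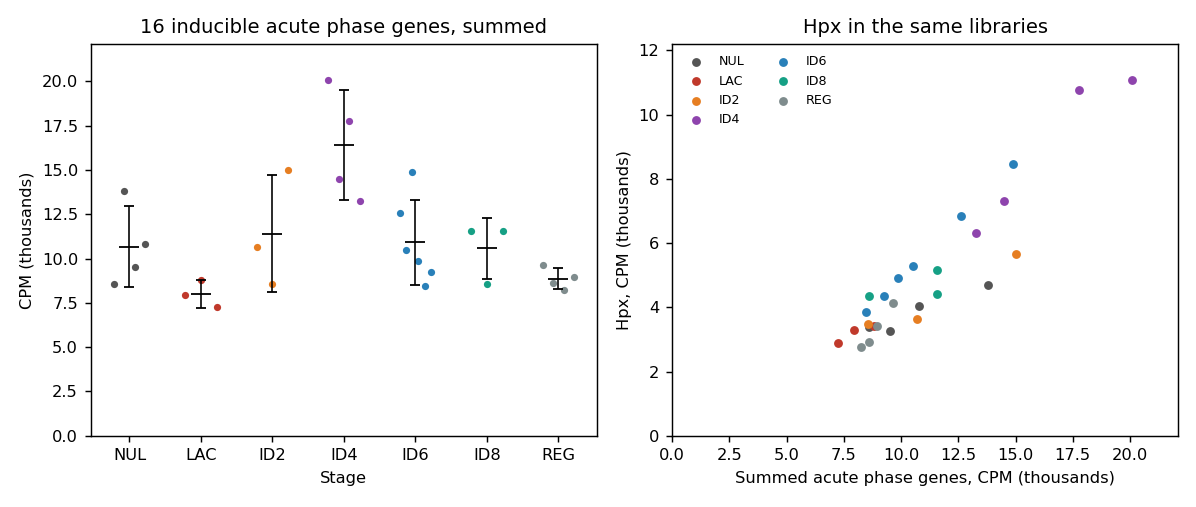
Left, summed level of the 16 inducible acute phase genes (in units of 1000 CPM, linear axis) in each library by stage, with mean and SD in black. Right, Hpx (in units of 1000 CPM) against that sum in the same 27 libraries, coloured by stage. The ID4 libraries (13272 to 20103 CPM summed, 6308 to 11093 CPM of Hpx) hold the top values on both axes but overlap other libraries in the sum (NUL_221 at 13794, ID6_216 at 14894 and ID2_39 at 14998) and in Hpx (ID6_201 at 6854 and ID6_216 at 8476).

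Of 36 genes of other secreted hepatocyte proteins, all tested, 6 were called higher and 1 lower in LAC against NUL (median -0.01), where 5.19% of all genes were called higher and 6% lower. In ID4 against NUL 10 were called higher and none lower (median 0.24), where 2.64% of all genes were called higher. Hp and Fgb stand in both this list and the acute phase list. In LAC, Serpina1d, an alpha-1-antitrypsin gene, had 625 ± 195 CPM against 263 ± 88.1 in NUL (log2 fold change 1.25, edgeR adjusted p = 0.0189). It shares sequence with near-identical neighbours, so its counts are uncertain, as are those of Mup20 (0.83, edgeR adjusted p = 0.00864). The protease inhibitor gene Mug1, one of a family of close copies as well, fell from 2463 ± 669 to 1148 ± 131 CPM (-1.10, edgeR adjusted p = 0.00199). From LAC to ID2, 7 of 36 were called higher and 1 lower, where 8.48% of all genes were called higher and 7.64% lower, and Mug1 rose again to 1906 ± 333 CPM (0.73, edgeR adjusted p = 0.0333). Serpina6, which encodes the corticosteroid carrier of plasma, rose from 195 ± 12.1 to 465 ± 83.5 CPM (1.25, edgeR adjusted p = 0.00851), and Itih3, a hyaluronan-binding partner of bikunin, rose from 840 ± 24.4 to 1492 ± 428 (0.83, edgeR adjusted p = 0.00392).

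Of 22 liver transcription factors known for plasma protein genes, none was called higher and 2 lower in LAC, a share near the 11.2% of all genes called there. They were Stat5a (20.5 ± 2.73 to 11.8 ± 0.535 CPM, edgeR adjusted p = 4.19e-04) and Stat5b (68.1 ± 5.31 to 51.8 ± 7.07, adjusted p = 0.0169). Hnf4a, which encodes the receptor whose motif is printed above, had 580 ± 103 CPM in NUL and 639 ± 116 in LAC (log2 fold change 0.14, edgeR adjusted p = 0.644), and Cebpa 332 ± 36.9 and 379 ± 84.4 (0.19, edgeR adjusted p = 0.453). Dbp, named for its binding to the albumin promoter and strongly tied to the time of day, had 1.68 ± 1.15 CPM in NUL, 3.05 ± 3.15 in LAC and 23.4 ± 16.9 in ID2. It was called higher in ID2 against LAC (2.94, edgeR adjusted p = 0.0312) and against NUL (3.80, edgeR adjusted p = 0.0149). Stat5b and Nr5a2 were also called higher from LAC to ID2 (0.49 and 0.43, edgeR adjusted p = 0.00495 and 0.00953), as was Tef, a relative of Dbp (0.75, edgeR adjusted p = 0.0381). With Dbp these made 4 of 22 called higher and none lower, where 8.48% of all genes were called higher. In ID2 against NUL 2 of 22 were called higher and 2 lower, where 3.24% of all genes were called. They were Dbp and Tef (1.28, edgeR adjusted p = 0.00263), both higher, and Foxa1 and Stat5a, both lower. Foxa1, of the forkhead family, had -0.76 (edgeR adjusted p = 0.00376) and Stat5a -0.51 (edgeR adjusted p = 0.0362). In ID4 against NUL 2 of 22 were called higher and 1 lower, where 4.25% of all genes were called. From ID6 to ID8 3 of 22 were called, all higher, namely Cebpa (0.53, edgeR adjusted p = 0.0213), Dbp (2.58, edgeR adjusted p = 0.0483) and Tef (0.98, edgeR adjusted p = 0.00969), where 4.12% of all genes were called. Of 13 clock genes, which include Dbp and Tef, 4 were called higher (Dbp, Tef, Per3 and Ciart) and 2 lower (Cry1 and Arntl) in ID2 against NUL, where 3.24% of all genes were called. In ID2 against LAC Dbp and Tef were called higher and Arntl and Clock lower, and from ID6 to ID8 Dbp and Tef higher and Cry1 and Npas2 lower. The time of day of collection is not given in the labels, and its part was not tested.

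Of 15 listed receptors and recycling factors of the carriers, 13 were tested. In LAC 3 were called lower and none higher (median -0.19), where 6% of all genes were called lower. From LAC to ID2 3 were called higher and none lower (median 0.27), where 8.48% of all genes were called higher. In ID4 against NUL 2 were called higher and none lower (median 0.19), where 2.64% of all genes were called higher. From ID2 to ID4 1 was called higher and none lower, where 1.49% of all genes were called. From ID4 to ID6 2 were called lower and none higher (median -0.14), where 4.64% of all genes were called lower. In REG none was called. Stra6l, a liver receptor for retinol binding protein, fell from 196 ± 12.3 CPM in NUL to 156 ± 10.6 in LAC (-0.33, edgeR adjusted p = 0.0161) and rose to 229 ± 19.6 in ID2 (0.56, edgeR adjusted p = 3.35e-04), whereas Rbp4 itself was not called in either comparison. Dab2, an adaptor of endocytosis, was lower in LAC (-0.51, edgeR adjusted p = 0.0225). The scavenger receptors Stab1 and Stab2 of sinusoidal endothelial cells were higher in ID2 than in LAC (0.45 and 0.43, edgeR adjusted p = 0.0201 and 0.0368). The 8 markers of those cells, which include Stab2, summed to 299 to 344 CPM in NUL, 236 to 281 in LAC and 324 to 333 in ID2. In LAC against NUL all 8 had a negative log2 fold change (median -0.27) and 1 was called lower, and in ID2 against LAC 7 of 8 had a positive one (median 0.28) and 4 were called higher. Their part in the receptors' values was not tested.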

How the data were processed

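RNA was extracted with Trizol from flash-frozen, pulverised liver and made into libraries with the NEBNext Ultra RNA kit, per the labels' protocols. Per the submitters' processing notes the tools were STAR 2.6.1a and RSEM 1.3.1, with mm10 and GRCm38 named as builds. The use of strand and the gene annotation are not given in the sources used here. Per the file headers, each library's deposited table gives the expected count per gene, the authors' estimate of reads from that gene with no scaling between libraries, and TPM, the authors' length-scaled value. Symbols and positions came from GENCODE mouse release 21 (GRCm38), which held 51633 of 51826 identifiers.

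For testing, each expected count was rounded and analysed by edgeR 4.0.16 under R 4.3.3: filterByExpr by stage, TMM scaling, 1 quasi-likelihood fit of 27 libraries and 7 groups, two-sided tests, and Benjamini-Hochberg adjustment over 16428 genes within each of 11 comparisons, called under 0.05. CPM is given as mean ± SD or per library, and the SE belongs to the log2 fold change. Shares use all counts of a library. Exact permutation tests and correlations (log2 CPM with a pseudocount of 0.5) used Python 3.11.15 with scipy 1.17.1. The fit was tested on simulated data. Depth (41120650 to 75664540 counts) gave every member at least 14031 counts in each library.

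The members and lists were chosen with earlier results of these data known. All 9 members were named. Tef, Foxa1 and the called clock genes and hepatocyte markers were named after their values were seen. Of each list, up to 3 called genes with the largest changes, a mean of at least 5 CPM and no overlap between groups were named in LAC against NUL and ID2 against LAC, together with Hnf4a, Cebpa, Dbp and Afp. A further gene that the rule names is not reported here. Alternatives were DESeq2 1.42.0, 3 other scalings, no filter, limma 3.58.1 on log2(TPM + 1) and log2(TPM + 0.1), only the groups compared, 2 covariates, an adjusted p under 0.01 and leaving out each library.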

Additional observations from a re-analysis of the deposited data

Results flagged for a closer look

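Groups of 4 to 6 libraries were checked for a library whose gap to the nearest other was large beside the range of the group (Dixon's 95% criterion). The values checked were the level of each of the 9 carriers and the log2 ratio of Alb to the other 8. Shares were checked for Alb, for the 9 carriers summed and for the 8 without Alb. Of 52 such groups 5 met it, and chance gives about 1 in 20. In ID6, library ID6_216 had 122396 CPM of Alb against 73677 to 86458 in the other 5, and Alb took 11.9% of its counts against 8.12 to 9.13%. The 9 carriers together took 15% of its counts against 10.8 to 11.8% in the others, and its Ambp level was 3369 CPM against 2737 to 2922. These 4 values come from 1 library, and those of Alb and of the sum rest on the same counts. In ID4, library ID4_15 had 438 CPM of Fetub, below the 502 to 514 CPM of the other 3 and above every NUL library.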

How the results depend on the processing

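No paired analysis was possible because no title number occurs in more than 1 group. Of 99 tests of a member in a comparison, 16 were called, and none of these 16 changed sign under any alternative. Of them 12 kept their call under all settings other than an adjusted p under 0.01 (libraries left out apart), and 8 kept it in every fit without 1 library. Of the 83 not called, 14 were called under some alternative and 26 changed sign under some alternative. In LAC against NUL 1 member in place of 2 was called at an adjusted p under 0.01, without the filter on low counts, with limma on log2(TPM + 1) or log2(TPM + 0.1) and when only the groups compared were fitted, and 1 to 2 when single libraries were left out. At an adjusted p under 0.01 the count fell from 3 to 1 in ID2 against LAC, from 2 to 0 in ID4 against ID2, from 6 to 4 in ID4 against NUL (without Gc and Ahsg) and from 3 to 2 in ID6 against ID4. Without single libraries it ran from 2 to 3 in ID2 against LAC, from 0 to 1 in ID2 against NUL, from 5 to 6 in ID4 against NUL, from 0 to 2 in ID4 against ID2 and from 2 to 5 in ID6 against ID4. As a share of TPM in place of counts, the difference of LAC from NUL was 5.17 percentage points for Alb and 4.96 for the 9 members. Without single libraries these differences were 5.99 to 7.45 and 5.68 to 7.16 in shares of counts. Scaling to total counts shifted the median of all genes by -0.19 in LAC and by -0.12 in ID4 against NUL, called 459 genes higher and 2649 lower in LAC against NUL (853 and 985 with TMM), and called Hrg (-0.31) and Ambp (-0.26) lower there. The cause of these differences was not tested. Each member had at least 14031 counts in every library, and groups held 3 to 6 libraries.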

Other observations

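Of 35 genes for entry of secreted proteins into the endoplasmic reticulum, their folding and export, none was called in LAC against NUL by edgeR at an adjusted p under 0.05, where 11.2% of all genes were called, and 31 of 35 had a positive log2 fold change (median 0.13, beside -0.01 over all genes). From LAC to ID2 9 of 35 were called lower and none higher (median -0.29), where 7.64% of all genes were called lower. Hspa5, the main chaperone of the endoplasmic reticulum, fell from 1658 ± 260 CPM (SD, n = 3) to 830 ± 188 (n = 3), a log2 fold change of -1.0 (edgeR adjusted p = 0.0366). Srprb, a subunit of the receptor for the signal recognition particle, and Spcs2, a subunit of the signal peptidase, fell as well (-0.89 and -0.64, edgeR adjusted p = 0.0249 and 0.00902). In ID2 against NUL none was called, where 3.24% of all genes were, and 3 of 35 had a positive log2 fold change (median -0.22). In ID4 against NUL 2 of 35 were called lower and none higher, where 1.61% of all genes were called lower. There too 3 of 35 had a positive log2 fold change (median -0.16). From ID4 to ID6 4 of 35 were called higher and none lower, where 3.87% of all genes were called higher. Library ID2_31, with its pancreas markers, is among the 3 libraries of ID2, and its part in these values was not tested.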
